A study of Homo sapiens with 6 samples.

Results

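Interferon response and antigen presentation genes were compared between MDA-MB-231 cells grown on fructose and on glucose. They comprise 43 gene symbols, listed by name but chosen with earlier results of these data known. The table held 18404 genes that had a probe set of their own. Of the 43, 38 had such a probe set, and where a gene had several the one with the highest mean log2 level over the 6 arrays was used. HLA-B, HLA-C and GBP1 were on the array table only through probe sets that also name other genes, so those are given as shared values and not counted, and STAT2 and HLA-E were not analysed here. MDA-MB-231 is an established cell line of triple-negative human breast cancer. There were 3 cultures in 10 mM fructose and 3 in 25 mM glucose, both in DMEM, each a separately adapted batch kept in its sugar for 25 days, with 1 array of total RNA per culture. Cultures near 70% confluency gave the RNA roughly 24 hours after their medium was renewed. The groups differ in both the sugar and its concentration, which cannot be told apart here, and all 6 arrays come from 1 cell line and the labels' protocols mention no interferon. The values are RMA intensities, which are background-corrected, normalized and summarised per probe set on a linear scale, and every difference below is fructose minus glucose on the log2 scale.

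Cells sense foreign nucleic acid through proteins such as RIGI and IFIH1, which activate IRF3 and IRF7 and start the transcription of interferons. Secreted type I interferon binds its receptor and activates a complex of STAT proteins with IRF9, which binds the interferon-stimulated response element (ISRE) in the promoters of antiviral genes, among them the IFIT, OAS and MX families. Interferon gamma acts through another STAT complex and through IRF1, and raises the guanylate-binding proteins and the machinery that loads peptides onto MHC class I molecules. Many tumour lines keep some of these genes active without added interferon.

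The arrays were alike in overall signal, with median intensities over the 28230 tested probe sets between 31.5 and 33.5. Precision was limited by having 3 arrays per sugar, and the standard error of a difference was 0.095 at the median probe set. Of 8 mesenchymal markers of the line 7 lay above the median probe set and SPARC below it. VIM averaged 2876 ± 67.9 in fructose and 2849 ± 116 in glucose (SD, n = 3 each, as for each mean ± SD below) and CD44 2052 ± 118 in fructose and 1949 ± 51.3 in glucose. Of 8 luminal markers KRT8, KRT18, GATA3 and ERBB2 lay above it and the other 4 below, among them the oestrogen receptor ESR1, at 15.8 ± 3.65 in fructose and 16.3 ± 2.44 in glucose. Fructose replicate 2 stood apart from the other fructose arrays on the first 2 principal components, at -5.67 on the first against -17.9 and -19.3 for fructose replicates 1 and 3 and 13.5 to 14.8 for the glucose arrays. The 11 measured leukocyte markers all lay below the median probe set, with a summed intensity of 167 to 180.1 in fructose and 167 to 177 in glucose.

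Of the 4 IFIT genes, 3 were lower in fructose on every array. Among the antigen presentation genes, TAP1, TAPBP and the probe set of HLA-B and HLA-C were higher on every array. B2M was lower on every array, however, and TAP2 overlapped. The remaining families were mixed. Of all tested probe sets, 8.81% were lower on every fructose array than on any glucose array and 11.4% higher. The 38 genes differed by a median of 0.0059 (log2), beside 0.02 over all tested probe sets, with 21 higher and 17 lower. None passed limma's test after adjustment over all probe sets, where 0.00354% of probe sets did, and the smallest adjusted p among the 38 was 0.17, for IFIT2. The span of the differences was -0.46 to 0.39, and all 38 intervals (95%) lay between -0.76 and 0.67, so that a 2-fold difference in either direction lay outside each of them.

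At an unadjusted p under 0.05, 5 genes were lower in fructose and 5 higher. These are 13.2% of the 38 in each direction, beside 5.43% of all tested probe sets lower, 7.65% higher and 13.1% in either direction. The lower genes were IFIT1, IFIT2, IFIT5, IFI44 and GBP2, and the higher genes OAS2, IFITM1, XAF1, TAP1 and TAPBP. Among the 31 genes at or above the median level the share was 16.1% in each direction, beside 7.72% of the probe sets at that level lower and 9.71% higher. After each array was centred on its median the counts were 6 lower and 1 higher. Centring moves all probe sets of an array alike, and the shares of all probe sets were not taken after it. All fructose arrays were below all glucose arrays for 6 genes, or 15.8%, beside 8.81% of all probe sets, and above for 4 genes, or 10.5%, beside 11.4%. Over both directions 20.2% of all probe sets had groups that did not overlap.

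**Figure D1:**
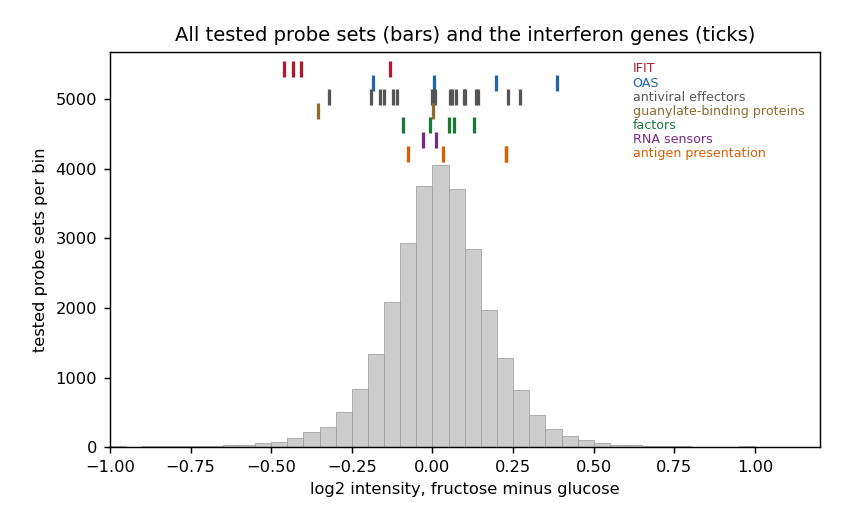
Grey bars count the 28230 tested probe sets by their log2 difference, fructose minus glucose, in bins of 0.05 (values beyond -1 or 1 are in the end bins). Coloured ticks mark the 38 genes by role, and 3 of the 4 IFIT ticks sit together between -0.46 and -0.41.

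Among the RNA sensors and the transcription factors the differences were small. RIGI, which detects RNA with triphosphate ends, had intensities of 324, 382 and 307 in fructose, against 319, 335 and 349.9 in glucose. Fructose replicate 2 was the highest of the 6 and fructose replicate 3 the lowest. Its difference was 0.01 (SE 0.10, adjusted p = 0.98). IFIH1, the sensor of long double-stranded RNA, had 35.3, 33.5 and 37.4 in fructose, against 35.5, 37.3 and 35.5 in glucose, a difference of -0.03 (SE 0.07, adjusted p = 0.90). The arrays of both sensors overlapped between the sugars.

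IRF9, the subunit that gives the STAT complex its DNA specificity, had intensities of 99.9, 93.0 and 96.1 in fructose, against 90.7, 115 and 87.3 in glucose. Glucose replicate 2 was the highest of the 6, the groups overlapped, and the difference was -0.0077 (SE 0.11, adjusted p = 0.99). IRF1, an activator of interferon gamma targets and of antigen presentation genes, had 39.6, 53.6 and 38.4 in fructose, against 41.5, 46.2 and 51.5 in glucose, so fructose replicate 2 was its highest array and fructose replicates 1 and 3 its lowest. IRF1 differed by -0.09 (SE 0.15, adjusted p = 0.83), by -0.24 without fructose replicate 2 and by -0.0043 without fructose replicate 3. IRF2, which competes with IRF1 for the same sites, had 191, 184 and 171 in fructose, against 162, 171 and 166 in glucose and differed by 0.13 (SE 0.07, adjusted p = 0.50). Fructose replicate 3 lay just below the highest glucose array.

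IRF3, the latent factor that starts interferon beta transcription, had 129.7, 139.6 and 141 in fructose, against 133, 131 and 132 in glucose and differed by 0.05 (SE 0.07, adjusted p = 0.80). IRF7, the amplifier of the interferon alpha response, averaged 74.7 ± 8.30 in fructose and 71.1 ± 4.82 in glucose, a difference of 0.07 (SE 0.10). The 5 factors differed by a median of 0.05, and none was at an unadjusted p under 0.05.

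**Figure D2:**
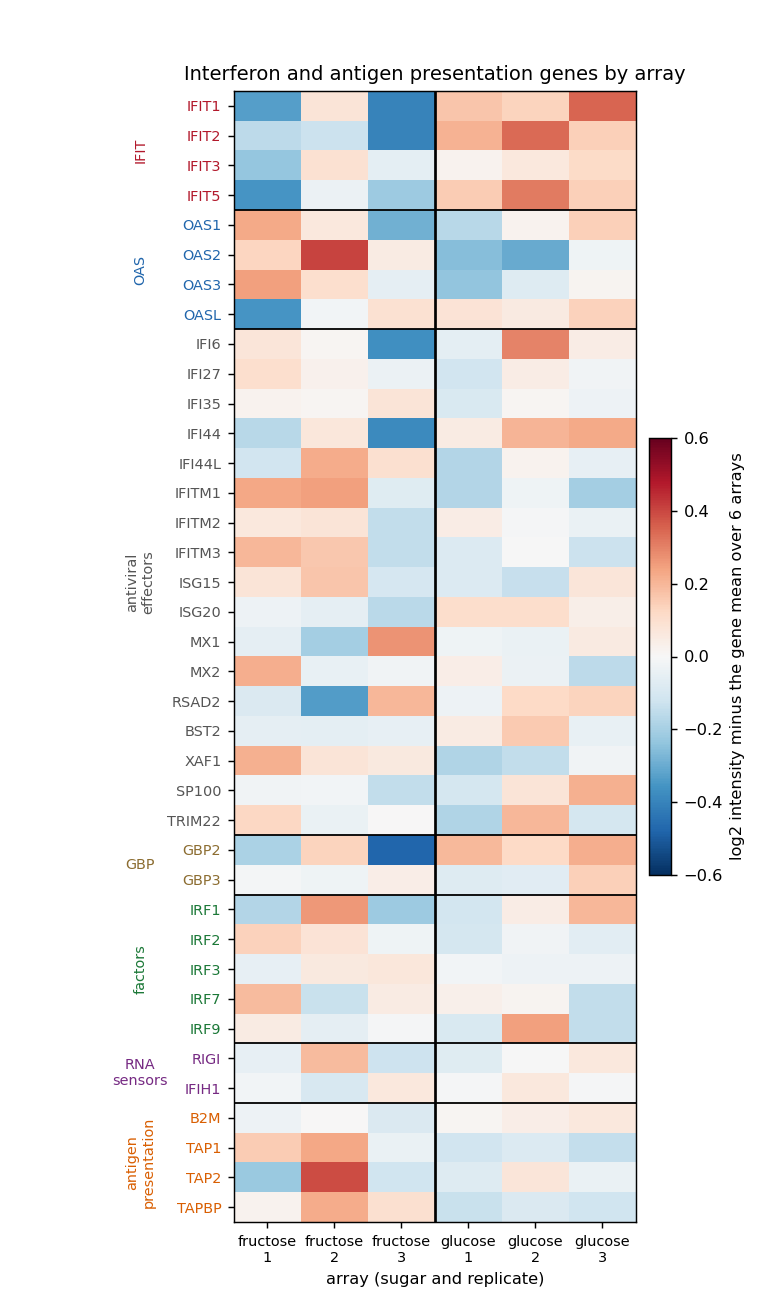
Each row is 1 of the 38 genes, grouped by role, and each column 1 array, with fructose replicates 1 to 3 left of glucose replicates 1 to 3. Colour is the log2 intensity minus the gene's mean over the 6 arrays, and the IFIT rows are mostly blue in fructose and red in glucose while TAP1 and TAPBP show the opposite.

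The IFIT proteins bind RNA that looks foreign and block its translation, and their genes lie together on chromosome 10, where IFIT2 is next to IFIT3 and IFIT1 next to IFIT5 in the current gene table. All 4 were lower in fructose, with a median difference of -0.42. On single arrays the median deviation from the glucose mean was -0.47, -0.19 and -0.52 in fructose replicates 1 to 3 and between -0.05 and 0.05 in glucose. None of the 4 passed, and 3 were lower at an unadjusted p under 0.05, beside 5.43% of all tested probe sets. Because each array holds RNA of a whole culture, less RNA per cell and fewer expressing cells cannot be told apart.

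IFIT2, which binds AU-rich RNA, had intensities of 76.4, 77.9 and 64.6 in fructose, against 98.6, 108 and 94.0 in glucose. Every fructose array was below every glucose array. The level was 1.37-fold lower in fructose, a difference of -0.46 (SE 0.10, adjusted p = 0.17) with a 95% interval of -0.69 to -0.23. With a variance trend on intensity and robust variances the adjusted p of IFIT2 was 0.048, and over all other settings tried it lay between 0.051 and 0.38.

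IFIT5, which binds RNA with triphosphate ends, had intensities of 89.9, 112 and 98.7 in fructose, against 128, 143 and 127 in glucose. The groups did not overlap, and fructose replicate 2 was nearest to glucose. IFIT5 was 1.33-fold lower in fructose, a difference of -0.41 (SE 0.10, adjusted p = 0.21) with a 95% interval of -0.64 to -0.17.

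IFIT1, which holds RNA whose cap lacks ribose methylation, had intensities of 45.6, 60.4 and 43.4 in fructose, against 64.3, 62.7 and 73.0 in glucose. Fructose replicate 2 came within a few units of the lowest glucose array, and the other fructose arrays lay well below. IFIT1 was 1.35-fold lower in fructose, a difference of -0.43 (SE 0.14, adjusted p = 0.27), and the difference was -0.58 without fructose replicate 2. IFIT3, which stabilises IFIT1 on RNA, had 108, 136 and 122 in fructose, against 129, 133 and 138 in glucose. Its groups overlapped, because fructose replicate 2 lay above glucose replicates 1 and 2, and its difference was -0.13 (SE 0.09, adjusted p = 0.60).

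The promoter stretches of 3 IFIT genes are shown because they lie in 1 gene cluster and hold the ISRE letters. IFIT1 and IFIT5 were at an unadjusted p under 0.05 and IFIT3 was not. Each is the 180 bases before the start of the gene from RefSeq on build GRCh38.p14, read along the gene's strand, with matches in capitals (GAAA, any 2 bases and GAAA again, or on the other strand TTTC, any 2 bases and TTTC again). All 3 are on the plus strand of chromosome 10, IFIT1 at chr10:89392443-89392622, IFIT3 at chr10:89327817-89327996 (of its 2 promoter entries, the one with the lower coordinate) and IFIT5 at chr10:89414388-89414567.
IFIT1: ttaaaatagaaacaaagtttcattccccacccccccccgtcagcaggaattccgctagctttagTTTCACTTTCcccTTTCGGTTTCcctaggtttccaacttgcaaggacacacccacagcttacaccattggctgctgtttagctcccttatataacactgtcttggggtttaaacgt
IFIT3: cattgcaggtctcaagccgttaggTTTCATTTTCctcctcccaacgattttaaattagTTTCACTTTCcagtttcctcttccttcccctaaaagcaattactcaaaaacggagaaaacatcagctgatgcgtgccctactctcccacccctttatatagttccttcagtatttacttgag
IFIT5: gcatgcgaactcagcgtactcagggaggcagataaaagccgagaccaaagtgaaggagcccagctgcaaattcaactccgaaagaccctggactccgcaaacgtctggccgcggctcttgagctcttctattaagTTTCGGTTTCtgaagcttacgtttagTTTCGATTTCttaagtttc
IFIT1 and IFIT3 each hold 2 matches, whose first bases lie at -116 and -103 and at -156 and -122, counting back from the first base of the transcript. In IFIT5 the 2 matches are closer to the start, at -45 and -19.

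Of the 43 symbols, 32 had a promoter entry, and 21 of the 32 held a match to these ISRE letters on either strand within 250 bases before the start, or 65.6%, beside 3.71% of the 27305 genes with an entry. By role these were 3 of 3 IFIT genes, 11 of 14 antiviral effectors, 4 of 6 antigen presentation genes, 1 of 2 OAS genes, 1 of 2 RNA sensors, 1 of 2 guanylate-binding proteins and 0 of 3 factors. The letters of the gamma-activated site, TTCNNNGAA, which read the same on both strands and may share bases with an ISRE match, were present in 10 of the 32, or 31.2%, beside 8.09% of all genes. Genes with ISRE matches were found among those lower in fructose at an unadjusted p under 0.05 (IFIT1, IFIT5, IFI44) and those higher (TAP1, TAPBP, IFITM1). Of the other genes at this threshold, XAF1 held no ISRE match, and IFIT2, GBP2 and OAS2 had no promoter entry.

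**Figure D3:**
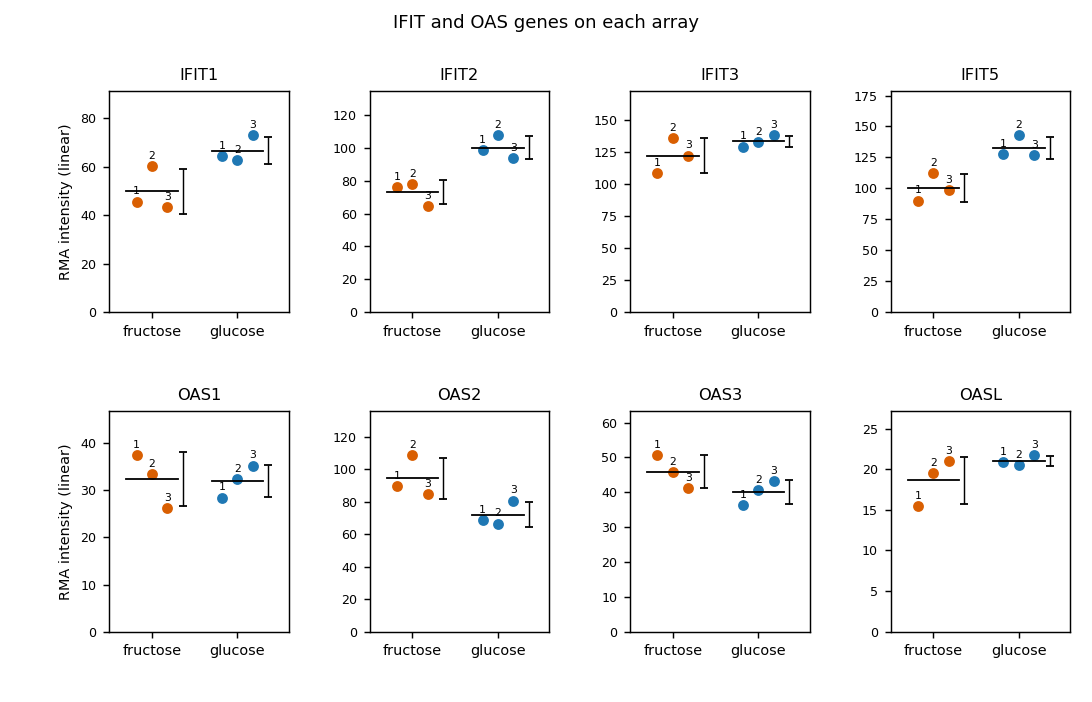
Linear RMA intensities of the IFIT genes (upper row) and OAS genes (lower row) on each array, fructose left of glucose. Numbers are replicates, horizontal lines the means and bars the SD (n = 3), and the fructose points of IFIT1, IFIT2 and IFIT5 lie below all glucose points while those of OAS2 lie above.

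The OAS enzymes make short oligoadenylates that switch on RNase L, an RNA-degrading enzyme, and OAS1, OAS3 and OAS2 are neighbours on chromosome 12. Unlike the IFIT genes they did not share a direction, with 3 higher and 1 lower and a median of 0.10. OAS2 had intensities of 89.6, 109 and 84.8 in fructose, against 68.7, 66.6 and 80.7 in glucose. Each fructose array was above each glucose array, and fructose replicate 2 was the highest. OAS2 was 1.31-fold higher in fructose, a difference of 0.39 (SE 0.12, adjusted p = 0.26) with a 95% interval of 0.11 to 0.67, which is the largest positive difference of the 38.

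OAS3 had intensities of 50.6, 45.9 and 41.2 in fructose, against 36.3, 40.6 and 43.3 in glucose. The groups overlapped through fructose replicate 3, and the difference was 0.20 (SE 0.10, adjusted p = 0.48). OAS1 averaged 32.3 ± 5.68 in fructose and 32.0 ± 3.42 in glucose, a difference of 0.0035 (SE 0.15). The relative OASL, which lacks the synthetase activity and supports RIGI signalling, averaged 18.6 ± 2.87 in fructose and 21.0 ± 0.630 in glucose, a difference of -0.19 (SE 0.12). OAS1 and OASL lay below the median probe set, and on bright probe sets alone the OAS median was 0.29 over OAS2 and OAS3.

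The 17 antiviral effectors differed by a median of 0.05, with 10 higher and 7 lower. IFI44, a cytoplasmic protein of the interferon response, had intensities of 100.1, 117 and 86.2 in fructose, against 116, 129 and 131 in glucose. Its groups overlapped by 1 array, fructose replicate 2, and its difference was -0.32 (SE 0.12, adjusted p = 0.34). The neighbouring IFI44L was dim, averaging 8.04 ± 0.932 in fructose and 7.31 ± 0.500 in glucose, and differed by 0.13 (SE 0.10). XAF1, which binds the apoptosis inhibitor XIAP, had 41.9, 38.1 and 37.6 in fructose, against 31.8, 32.5 and 35.6 in glucose. All 3 of its fructose arrays lay above glucose, a difference of 0.23 (SE 0.08, adjusted p = 0.30).

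ISG15, the ubiquitin-like protein that is among the most strongly interferon-induced gene products in most cells, had intensities of 338, 359 and 299 in fructose, against 302, 291 and 337 in glucose. The sugars overlapped, and its difference was 0.10 (SE 0.10, adjusted p = 0.72). MX1, the dynamin-like GTPase that blocks influenza virus, had 11.7, 10.6 and 14.7 in fructose, against 12.0, 11.8 and 12.6 in glucose. It was dim on all arrays, its groups overlapped, and its difference of 0.0083 (SE 0.12, adjusted p = 0.99) was negative after centring each array on its median or normalizing again. MX2, its neighbour and a barrier to HIV, averaged 11.1 ± 1.15 in fructose and 10.3 ± 0.698 in glucose and differed by 0.10 (SE 0.10). RSAD2 (viperin), which makes a chain-terminating nucleotide, averaged 8.91 ± 1.66 in fructose and 9.77 ± 0.603 in glucose and differed by -0.15 (SE 0.14), and TRIM22, a ubiquitin ligase, averaged 16.2 ± 0.966 in fructose and 15.6 ± 2.24 in glucose and differed by 0.05 (SE 0.11). MX1, MX2, RSAD2, IFI44L and TRIM22 all lay below the median probe set.

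The IFITM proteins, which stop virus membranes from fusing with the cell, are encoded side by side on chromosome 11 and were bright. IFITM1 had intensities of 173, 175 and 140.0 in fructose, against 130.1, 145 and 128 in glucose, with fructose replicate 3 inside the glucose range, and differed by 0.27 (SE 0.11, adjusted p = 0.35). IFITM3 averaged 1049.7 ± 133 in fructose and 948 ± 42.8 in glucose and differed by 0.14 (SE 0.11). IFITM2 averaged 588 ± 49.8 in fructose and 588 ± 17.4 in glucose and differed by -0.0027 (SE 0.08). The difference between these neighbours was not tested. In all 3 genes fructose replicate 3 was the lowest fructose array.

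Of the other effectors, BST2 (tetherin), which holds budding virus at the cell surface, averaged 272 ± 0.779 in fructose and 293 ± 20.5 in glucose and differed by -0.11 (SE 0.07). ISG20, an RNA exonuclease, averaged 43.1 ± 2.08 in fructose and 48.2 ± 1.37 in glucose and differed by -0.16 (SE 0.07). The fructose arrays of both lay below all glucose arrays. IFI6, an endoplasmic reticulum membrane protein, averaged 111 ± 17.6 in fructose and 127 ± 16.5 in glucose and differed by -0.19 (SE 0.14). SP100, a component of PML nuclear bodies, averaged 86.3 ± 4.33 in fructose and 94.3 ± 10.4 in glucose and differed by -0.12 (SE 0.10). A bright probe set that names SP100 with CTCFL and HMGB1 averaged 1429 ± 37.5 in fructose and 1647 ± 13.4 in glucose. It differed by -0.21 (SE 0.06) with no overlap between the sugars, and it could not be assigned to 1 of these genes. IFI27, a mitochondrial protein, averaged 256 ± 12.4 in fructose and 245 ± 13.7 in glucose and differed by 0.06 (SE 0.08), and IFI35 averaged 117 ± 2.94 in fructose and 111 ± 4.04 in glucose and differed by 0.07 (SE 0.07). On their own probe sets, the arrays of IFI6, SP100, IFI27 and IFI35 overlapped between the sugars.

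The guanylate-binding proteins are GTPases that attack pathogens inside the cell. GBP2 had intensities of 38.0, 47.6 and 31.2 in fructose, against 49.6, 47.1 and 50.5 in glucose. Fructose replicate 2 lay inside the glucose range and the other fructose arrays below it, a difference of -0.35 (SE 0.15, adjusted p = 0.37), and -0.51 without fructose replicate 2. Its further probe set had 24.5, 33.4 and 16.2 in fructose, against 33.2, 39.1 and 36.4 in glucose and differed by -0.61 (SE 0.24), with the same order of fructose arrays. GBP3 had 88.8, 88.1 and 92.0 in fructose, against 85.0, 85.3 and 98.8 in glucose and differed by 0.0021 (SE 0.08, adjusted p = 0.99), a sign that turned after centring or normalizing again. The probe set that GBP1 shares with GBP3 and a pseudogene averaged 200.1 ± 25.7 in fructose and 199 ± 11.4 in glucose and differed by 0.0037 (SE 0.11). Within this neighbouring group on chromosome 1, therefore, GBP2 alone was at an unadjusted p under 0.05, and the difference between these genes was not tested.

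The antigen presentation genes differed by a median of 0.13 over the 4 with a probe set of their own, with 3 higher and 1 lower. TAP1, a subunit of the transporter that carries peptides into the endoplasmic reticulum, had intensities of 188, 199 and 165 in fructose, against 157, 160.3 and 153 in glucose. Each fructose array was above each glucose array, and fructose replicate 2 was the highest. TAP1 was 1.17-fold higher in fructose, a difference of 0.23 (SE 0.09, adjusted p = 0.34) with a 95% interval of 0.03 to 0.43. TAPBP (tapasin), which tethers the class I molecule to the transporter, had 578, 663 and 608 in fructose, against 519, 535 and 524 in glucose. Its groups did not overlap either, and it was 1.17-fold higher in fructose, a difference of 0.23 (SE 0.07, adjusted p = 0.29). The other probe sets of TAPBP had the same sign with overlapping arrays.

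TAP2, the other subunit of the transporter, had intensities of 123, 189 and 133 in fructose, against 137, 151 and 139.9 in glucose. Fructose replicate 2 was well above the other 5 arrays, and the difference was 0.03 (SE 0.16, adjusted p = 0.95). A further probe set of TAP2 differed by 0.03 (SE 0.07), and a dim one with a wide spread differed by -0.91 (SE 0.56). B2M (beta-2-microglobulin), the light chain of every class I molecule, had 1011, 1036 and 974 in fructose, against 1041, 1062 and 1078 in glucose. The fructose arrays lay below the glucose arrays by a narrow margin, a difference of -0.07 (SE 0.06, adjusted p = 0.67). The brighter probe set that HLA-B and HLA-C share, for class I heavy chains, had 1224, 1099 and 1048 in fructose, against 873, 929.7 and 921 in glucose. Each fructose array was above each glucose array, 1.24-fold on average, a difference of 0.31 (SE 0.08, adjusted p = 0.22). The probe set could not be assigned to HLA-B or to HLA-C, and a dimmer one shared by the same genes differed by 0.44 (SE 0.11) with no overlap between the sugars. The probe sets that HLA-B shares with HLA-F were dim, overlapped between the sugars and differed by -0.37 (SE 0.19) and 0.17 (SE 0.16). The antigen presentation median was 0.04 without fructose replicate 2, the array with the highest TAP1, TAP2 and TAPBP.

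The promoter stretches of TAPBP, TAP1 and B2M are shown beside those of the IFIT genes because they hold the same ISRE letters while TAP1 and TAPBP differed in the opposite direction. They are again the 180 bases before the start from RefSeq, with matches in capitals, TAPBP at chr6:33314079-33314258 on the minus strand, TAP1 at chr6:32853705-32853884 on the minus strand (of its 2 entries, the one with matches) and B2M at chr15:44711337-44711516 on the plus strand, all on GRCh38.p14.
TAPBP: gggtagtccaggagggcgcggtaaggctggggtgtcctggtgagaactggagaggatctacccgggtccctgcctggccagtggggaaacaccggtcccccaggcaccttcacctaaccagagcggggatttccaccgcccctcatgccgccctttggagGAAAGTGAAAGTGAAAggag
TAP1: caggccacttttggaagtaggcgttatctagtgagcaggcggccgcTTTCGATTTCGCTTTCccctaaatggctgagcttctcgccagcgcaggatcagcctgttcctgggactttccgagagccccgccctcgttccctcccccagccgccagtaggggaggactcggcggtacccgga
B2M: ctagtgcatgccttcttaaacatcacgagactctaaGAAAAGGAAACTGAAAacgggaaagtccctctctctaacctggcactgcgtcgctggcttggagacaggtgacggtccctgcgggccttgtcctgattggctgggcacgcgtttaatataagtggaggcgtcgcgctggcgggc
Each holds 2 matches that overlap by 4 bases, so the capitals form a single run, at -20 and -14 in TAPBP, -134 and -128 in TAP1 and -144 and -138 in B2M. A match of letters describes the sequence and does not show that a factor was bound.

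**Figure D4:**
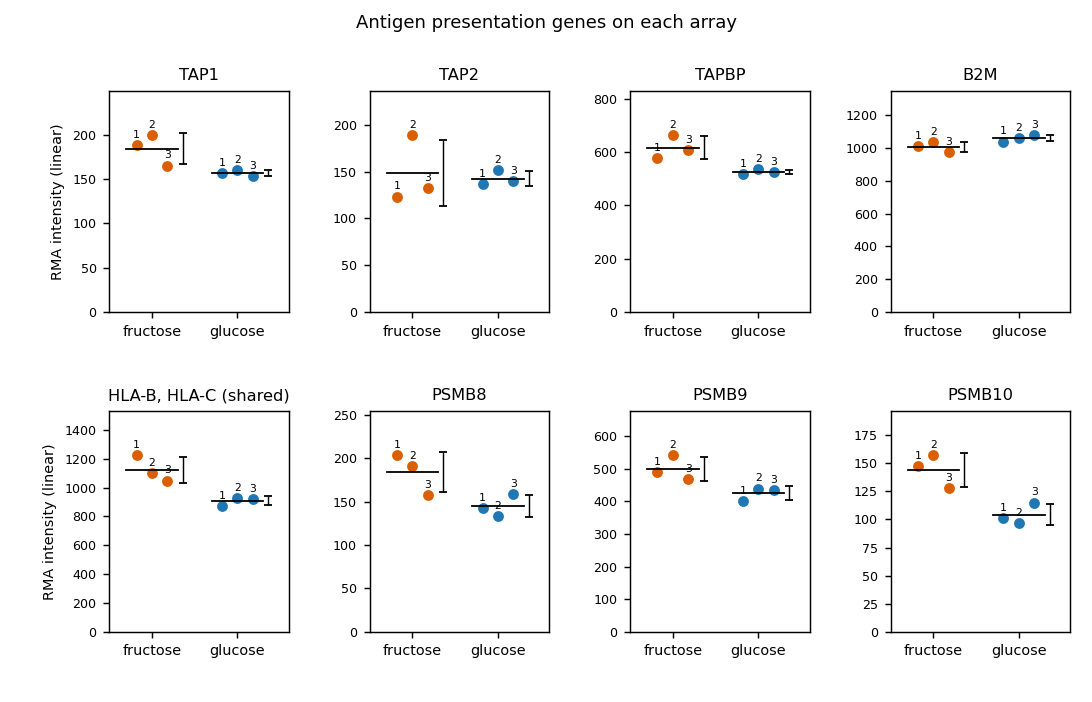
Linear RMA intensities of antigen presentation genes on each array, fructose left of glucose, with replicate numbers, means as lines and SD as bars (n = 3). TAP1, TAPBP, PSMB9, PSMB10 and the shared HLA-B and HLA-C probe set have every fructose array above every glucose array, TAP2 has a single high fructose array, and B2M sits slightly lower in fructose.

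Other genes of the same pathways were taken from 6 lists. None of their 73 measured genes passed, and at an unadjusted p under 0.05, 10 were higher and 7 lower. The counts of each list below use the same threshold. Of the further class I genes, 3 of 11 were higher and 0 lower, beside 7.65% and 5.43% of all probe sets. They are the 3 catalytic subunits that turn the proteasome into the immunoproteasome, which cuts peptides for presentation. PSMB10 had intensities of 148, 157 and 128 in fructose, against 101, 96.6 and 115 in glucose and differed by 0.47 (SE 0.11, adjusted p = 0.19). PSMB9, next to TAP1 on chromosome 6, had 490.3, 542 and 468 in fructose, against 401, 439 and 436 in glucose and differed by 0.23 (SE 0.08, adjusted p = 0.31). The fructose arrays of PSMB10 and PSMB9 lay above all glucose arrays. PSMB8, which stands on the other side of TAP1, had 203, 191 and 158 in fructose, against 142, 134 and 159 in glucose and differed by 0.34 (SE 0.12, adjusted p = 0.30), with fructose replicate 3 inside the glucose range.

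The MHC class II genes, which present peptides to helper T cells, had 3 of 6 higher and 0 lower, beside the same 7.65% and 5.43%. HLA-DPA1, a class II alpha chain, had intensities of 588, 558 and 408 in fructose, against 270.3, 407 and 297 in glucose and differed by 0.68 (SE 0.19, adjusted p = 0.24). Its partner HLA-DPB1 had 122, 109 and 98.4 in fructose, against 77.6, 93.7 and 75.5 in glucose and differed by 0.42 (SE 0.12, adjusted p = 0.23). In both genes every fructose array lay above every glucose array, and glucose replicate 2 was the highest glucose array. HLA-DMA, which helps load class II molecules, differed by 0.31 (SE 0.12), and the other 3 had overlapping arrays.

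Of the 8 measured interferon genes, 0 were at an unadjusted p under 0.05, and 6 lay below the median probe set, among them IFNA2 (interferon alpha 2), at 4.88 ± 1.03 in fructose and 4.06 ± 0.281 in glucose. The other two encode lambda interferons. IFNL3 averaged 81.2 ± 2.15 in fructose and 75.1 ± 2.41 in glucose, with each fructose array above each glucose array, and differed by 0.11 (SE 0.07). IFNL1 averaged 48.0 ± 7.16 in fructose and 41.2 ± 3.35 in glucose, overlapped between the sugars and differed by 0.21 (SE 0.12). Beside 7.65% of all probe sets higher and 5.43% lower, the receptors and kinases had 0 of 9 higher and 2 lower, IFNGR1 by -0.23 (SE 0.09) and IFNAR1 by -0.17 (SE 0.07), chains of the receptors for gamma and for alpha and beta interferon. Beside the same shares, nucleic acid sensing had 3 of 12 higher and 2 lower. TICAM1, the adaptor of the RNA receptor TLR3, differed by 0.31 (SE 0.07), whereas TLR3 itself differed by -0.35 (SE 0.11) and EIF2AK2, the RNA-activated kinase PKR, by -0.33 (SE 0.09). Among 27 further interferon-induced genes 1 was higher and 3 were lower, again beside 7.65% and 5.43%. The chemokine CXCL11, which was dim, differed by 0.33 (SE 0.09), PARP9 by -0.42 (SE 0.15) and the ISG15 ligase HERC5 by -0.23 (SE 0.10). The medians of the receptor list and of the further interferon-induced list were -0.03 and -0.02, beside 0.02 over all probe sets.

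**Figure D5:**
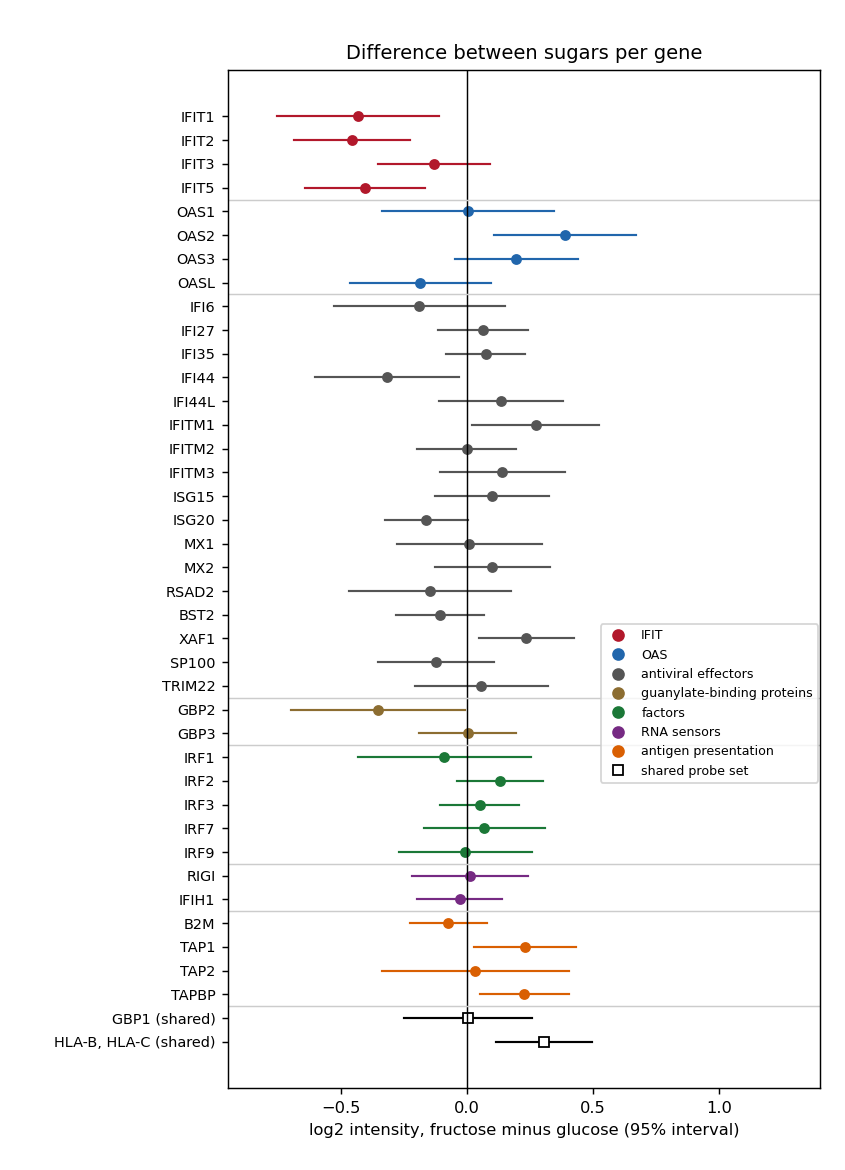
Log2 difference, fructose minus glucose, of each gene with its 95% interval from limma, coloured by role. Squares mark the probe sets shared by several genes, and the intervals of IFIT1, IFIT2, IFIT5, IFI44, GBP2, OAS2, IFITM1, XAF1, TAP1, TAPBP and the shared HLA-B and HLA-C probe set exclude 0.

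Of the 3 fructose arrays, replicate 3 was the lowest for 21 of the 38 genes, replicate 2 for 10 and replicate 1 for 7, beside 35.1%, 38.5% and 26.4% of all probe sets. Replicate 2 was the highest for 18 genes, replicate 1 for 12 and replicate 3 for 8, beside 30.8%, 36.5% and 32.7%. For all 5 genes that were lower at an unadjusted p under 0.05, the fructose array nearest to the glucose mean was replicate 2. For the 5 higher genes it was replicate 3 in 4 cases and replicate 1 in 1. The shares of all probe sets were not taken for these counts. Over all probe sets, replicate 2 was also the fructose array nearest to glucose on the first principal component, at -5.67 against -17.9 and -19.3. Without fructose replicate 2 the counts were 6 lower and 2 higher, and without fructose replicate 3 they were 3 lower and 7 higher. Without fructose replicate 1 both counts were 2, without glucose replicate 1 they were 4 lower and 1 higher, without glucose replicate 2 they were 3 each, and without glucose replicate 3 they were 2 lower and 3 higher. The count in each direction thus changed with the array left out. The shares of all probe sets at this threshold were not taken for these fits, so whether the change is particular to these genes was not tested.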

How the data were processed

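Expression was measured on 6 arrays, 1 per culture. The authors deposited 1 table of intensities, and the submitters' processing notes name RMA as the method without a version. The values are linear, between 2.15 and 7938 over the tested probe sets, so log2 was taken before each test with no pseudocount. Of 32321 rows, 4091 with identifiers below the lowest one paired with a gene were read as control probe sets and left out. Of the 28230 tested probe sets, the platform annotation names a single gene for 19158, more than 1 gene for 1388 and no gene for 7684. Groups came from the sample titles. The test was limma's two-sided moderated one without covariates (version 3.58.1, lmFit followed by eBayes, run under R 4.3.3). P-values were adjusted by the Benjamini-Hochberg method over all 28230. Arrays carry no read depth. The fit was tested on simulated data. The genes and lists were chosen with earlier results of these data known. Array values are given for 12 genes named in every case, where measured, and the 2 smallest p in each role. IFITM1, TAP2 and the shared probe sets were added after their values were seen. The array values of PSMB8, PSMB9, PSMB10, HLA-DPA1, HLA-DPB1 and the further GBP2 probe set were also outside this rule. Up to 3 genes per pathway list are named. Lists are described by counts and medians. Tried as alternatives were leaving out each array, a block for replicate number, repeated quantile normalization, median centring, bright probe sets, an intensity trend, array weights, averaging the probe sets of each gene, control probe sets kept, representative probe sets alone and an unmoderated test; counting the shared probe sets, and the counts at an unadjusted p under each of these, were added later.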

Additional observations from a re-analysis of the deposited data

How the results depend on the processing

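No gene of the 38 passed limma's adjusted threshold in the main analysis, and 1 did, IFIT2, when the variances followed an intensity trend with robust estimates (-0.46, adjusted p = 0.048). Calls over all probe sets numbered 1 in the main analysis, 325 among bright probe sets alone, 473 with the trend, 35 with 1 representative probe set per gene and 0 with the unmoderated test. For bright probe sets and representative probe sets fewer were tested, and the variances were estimated again from those alone. The cause of the differing numbers of calls was not tested in any setting. At an unadjusted p under 0.05, centring left 6 genes lower and 1 higher, and the unmoderated test 3 lower and 4 higher. With an array left out the lower count ran from 2 to 6 and the higher count from 1 to 7. The shares of all probe sets at this threshold were not taken for these fits or for the replicate block below. The median over the 38 ran from -0.023 to 0.041 with an array left out, and that of the factors from -0.0098 to 0.093. The OAS median was 0.29 on bright probe sets, and the guanylate-binding median 0.0021, against -0.18, once the shared probe set counted. Signs turned for genes near 0. After centring, MX1 was at -0.017, GBP3 at -0.024 and RIGI at -0.015; after quantile normalization MX1 was at -0.010 and GBP3 at -0.018; with array weights IRF9 was at 0.0062. With an array left out, MX1 ran from -0.12 to 0.11, GBP3 from -0.035 to 0.073, IRF9 from -0.083 to 0.11, RIGI from -0.082 to 0.076 and IFIH1 from -0.071 to 0.0090. Deviations of same-numbered arrays correlated at -0.03, -0.02 and -0.05. These values cannot show whether same-numbered cultures were handled as pairs, which the sample titles do not state. With the replicate block 0 genes of the 38 passed (4 lower and 4 higher at an unadjusted p under 0.05, smallest adjusted p 0.37).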

Other observations

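The marker lists of other cell types gave summed intensities of 127 to 135 in fructose and 136 to 138 in glucose for 8 fibroblast genes and of 1135 to 1267 in fructose and 1327 to 1397 in glucose for 8 luminal genes, of which KRT8 was the brightest. The 8 mesenchymal genes of the line summed to 11545 to 12002 in fructose and 11613 to 11665 in glucose. The part of the luminal and fibroblast sums in the differences reported above was not tested.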
